A study of Rattus norvegicus with 8 samples.

Results

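The mitochondrial ribosomal proteins studied here are the products of 68 nuclear genes, measured among 14497 genes named on an Affymetrix array in rat left ventricle. Members were the genes whose probe sets carried exactly 1 symbol beginning with Mrpl or Mrps and a number. These gave 72 probe sets; of the pairs that measured 1 gene, the brighter on average was kept. By symbol, 41 genes belong to the large and 27 to the small subunit. Of the arrays, 5 came from ILPD hearts and 3 from placebo hearts. All hearts were from female rats in late pregnancy and had undergone ischemia followed by reperfusion, which the labels write as I/R. ILPD hearts received 1 bolus of 5 mg/kg of the treatment that the design text writes as ITLD, and the title calls Intralipid, an intravenous emulsion of fat. Placebo hearts received the vehicle. That ILPD and ITLD are the same treatment was assumed. No heart without ischemia was analysed here, the strain was not used here, and whether the samples are separate animals is not in the labels. The p-values therefore rest on a spread among samples that could be technical.

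Mitochondria carry their own ribosome, which translates the small set of respiratory chain and ATP synthase subunits encoded by mitochondrial DNA. Its RNAs come from the mitochondrial genome, whereas all of its proteins are encoded in the nucleus, made in the cytosol and imported. The small subunit binds the messenger RNA and decodes it, and the large subunit joins the amino acids and releases the chain toward the inner membrane. In the heart, which depends on oxidative phosphorylation, these genes serve the supply of respiratory complexes. Some of the proteins have a bacterial homologue and others are found only in mitochondria.

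Values are log2 expression levels as the authors deposited them, and a difference is the ILPD mean minus the placebo mean on that scale. Array medians over all probe sets lay between 7.16 and 7.20 in ILPD and between 7.08 and 7.14 in placebo. Arrays correlated at 0.991 to 0.995 within groups and at 0.989 to 0.993 between them. Of the markers of the labelled tissue, all 12 ventricular cardiomyocyte markers were measured, with a mean level between 13.25 and 13.42 on ILPD arrays and between 13.44 and 13.55 on placebo arrays. The 12 markers summed on the linear scale, in units of 1000, to between 132 and 147 in ILPD and to between 151 and 156 in placebo, and the groups did not overlap. Among named genes of equal brightness 95.9% had a negative difference on average, so lower values were general at this brightness. Their median difference of -0.13 stood 0.01 above that of named genes of equal brightness, with 6 markers below and 6 above, and 1 of them, the troponin gene Tnnc1, fell (-0.37, SE 0.07, limma adjusted p = 0.0195). Tnnc1 no longer passed when placebo array 2 or 3 was left out, after cyclic loess or quantile normalization, or with the replicate block. In bulk tissue, fewer cells of a type and less RNA per cell cannot be told apart.

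No mitochondrial ribosomal protein gene passed the test, yet nearly all were slightly lower in ILPD hearts. Of the 68 genes, 63 had a negative and 5 a positive difference, with a median of -0.14, or -9.2%. A negative difference was found in 45% of all named genes and in 59.6% of the 7120 inside the members' range of brightness. Among genes of equal brightness to each member it was found in 65.1% on average. Shares inside the range are thus not matched for brightness, on which the differences depended. In limma's test, adjusted by Benjamini-Hochberg over 28826 probe sets, 0 members were called at an adjusted p of 0.05. Of all probe sets 2.81% were called, 1.96% as higher and 0.857% as lower. Of named genes 3.46% were called, 2.29% as higher and 1.17% as lower, and inside that range of brightness 3.23% were higher and 2.22% lower. At an unadjusted p of 0.05, 16 members (23.5%) were lower and 1 was higher. That threshold was passed as lower by 7.01% of all probe sets, 9.39% of named genes and 17.3% of those inside that range, and as higher by 11.3%, 11.5% and 12.8%. In 7 members (10.3%) every ILPD array lay below every placebo array. This was so for 4.42% of all probe sets, 5.83% of named genes and 10.4% of those inside that range, so the members' share was near its background. No member lay above placebo on every ILPD array, against 7.95% of all probe sets, 8.19% of named genes and 8.17% of those inside that range. The share of all probe sets with a negative difference was 41.5%. After cyclic loess and after quantile normalization, which scale the arrays differently, 53 and 55 of the 68 differences were negative, with medians of -0.09 and -0.11.

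**Figure D1:**
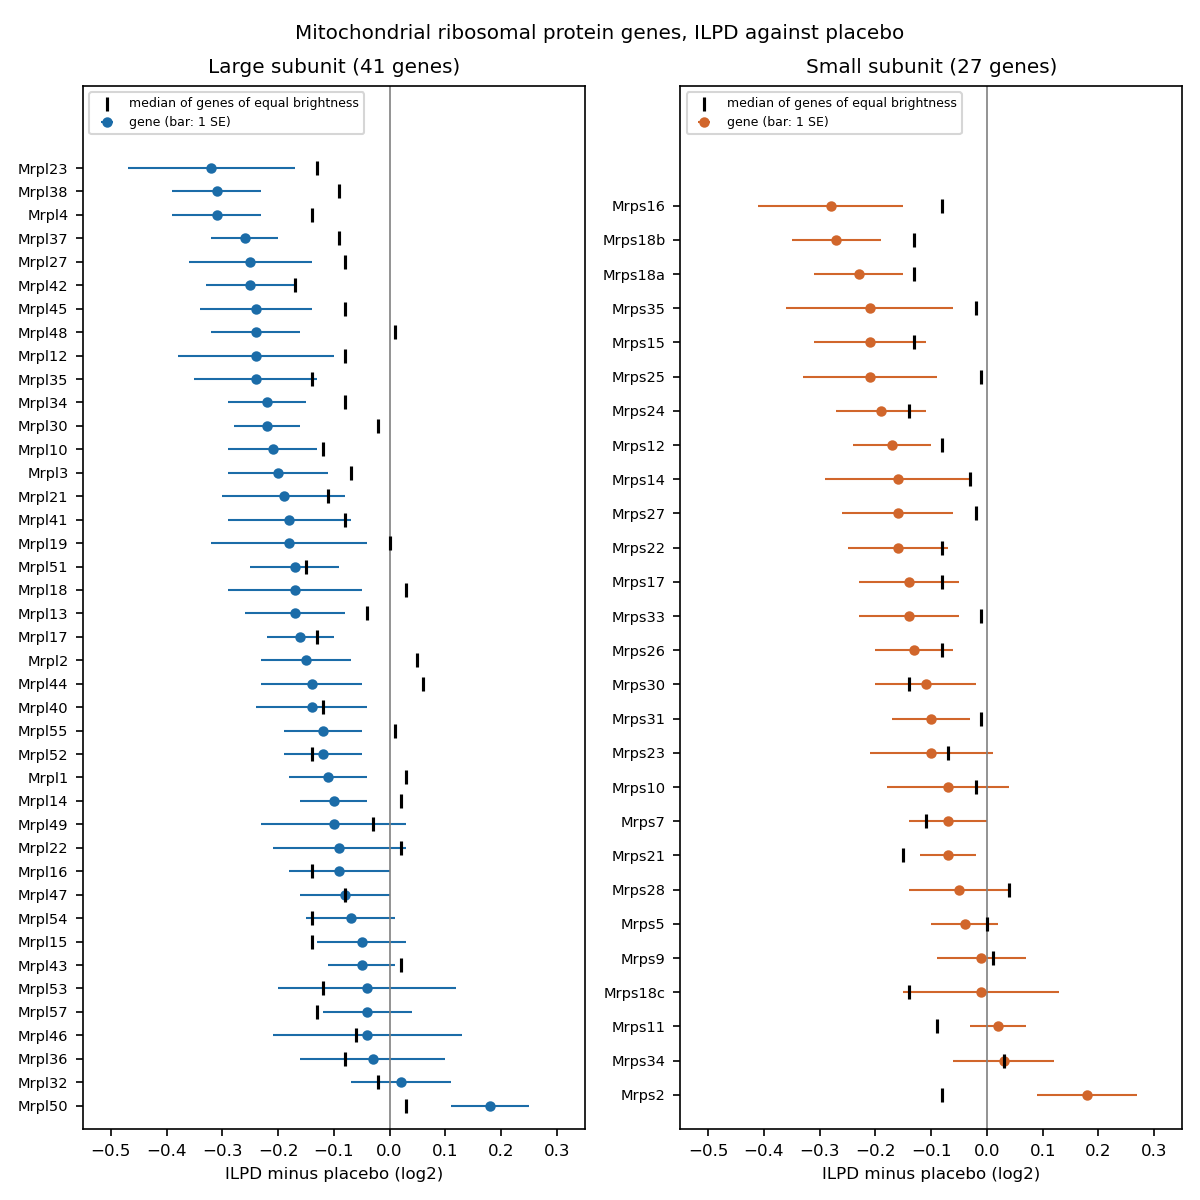
Difference of each of the 68 genes (ILPD minus placebo, log2, x axis) by subunit, with bars of 1 SE from limma. Black ticks mark the median difference of named genes within 0.25 log2 of the same mean level. All but 5 points lie left of 0, from -0.32 (Mrpl23) to 0.18 (Mrps2 and Mrpl50), and 51 lie left of their tick.

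The lowest adjusted p values belonged to 3 genes of the large subunit. Mrpl37, a protein found only in mitochondrial ribosomes, had levels of 10.16, 10.23, 10.13, 10.04 and 10.24 on the 5 ILPD arrays, against 10.42, 10.39 and 10.44 on the 3 placebo arrays. The groups did not overlap, and the difference was -0.26 (SE 0.06, limma adjusted p = 0.0518). Mrpl4, homologous to a bacterial protein near the exit tunnel, had 12.01, 12.12, 12.22, 11.90 and 12.12 in ILPD and 12.46, 12.31 and 12.38 in placebo. It too showed no overlap, with a difference of -0.31 (SE 0.08, limma adjusted p = 0.0588), or -19.5%. Mrpl38, a mitochondria-specific protein, had 10.31, 10.12, 10.07, 10.10 and 10.32 in ILPD and 10.55, 10.54 and 10.41 in placebo. Its difference was -0.31 (SE 0.08, limma adjusted p = 0.0591). These 3 genes lay at the threshold: Mrpl37 and Mrpl38 passed with array weights (0.0468 and 0.0369) and without ILPD array 5 (0.0454 and 0.0414), Mrpl38 also without ILPD array 1 (0.0476), and all 3 once the dimmest 40% of probe sets were left out (0.0497 for Mrpl4, 0.0498 for Mrpl37 and Mrpl38). Over all 15 alternatives run for each gene, the adjusted p reached 0.160 for Mrpl37, 0.183 for Mrpl38 and 0.278 for Mrpl4.

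In the other 4 genes without overlap, the difference was smaller or the spread wider. Mrpl30 had 8.91, 8.83, 8.77, 8.73 and 8.82 in ILPD and 9.04, 9.06 and 9.0 in placebo, a difference of -0.22 (SE 0.06, limma adjusted p = 0.0708). Mrpl17, like Mrpl30 a homologue of a bacterial large subunit protein, had 10.84, 10.68, 10.66, 10.69 and 10.78 in ILPD and 10.91, 10.85 and 10.91 in placebo. ILPD array 1 and placebo array 2 of Mrpl17 thus differed by only 0.01 at the printed precision. Mrpl42 had 13.19, 12.99, 13.01, 12.94 and 13.27 in ILPD and 13.31, 13.30 and 13.38 in placebo (difference -0.25, limma adjusted p = 0.141). A dimmer probe set of Mrpl42 did not share this difference (0.01, adjusted p = 0.943). Mrps18a had 10.85, 10.73, 10.61, 10.59 and 10.92 in ILPD and 11.02, 10.95 and 10.96 in placebo (difference -0.23, limma adjusted p = 0.162). Its symbol names it a small subunit protein, but in structures of the mammalian mitoribosome it sits in the large subunit.

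Other large subunit genes with low values overlapped between groups. The largest negative difference of any member was that of Mrpl23, homologous to a bacterial protein at the mouth of the exit tunnel, with 11.04, 10.84, 10.54, 10.40 and 10.44 in ILPD and 11.05, 10.80 and 11.07 in placebo. ILPD arrays 1 and 2 reached the placebo range there, and the difference of -0.32 had an SE of 0.15 (limma adjusted p = 0.279). Mrpl12, which forms the stalk that recruits translation factors and in human cells also binds the mitochondrial RNA polymerase, had 10.35, 10.07, 9.70, 10.01 and 10.14 in ILPD and 10.47, 10.04 and 10.37 in placebo. Its group means were 10.05 ± 0.23 (SD, n = 5) in ILPD and 10.29 ± 0.23 (SD, n = 3) in placebo, so the difference of -0.24 was about the size of the spread. Mrpl27, homologous to a bacterial protein at the peptidyl transferase centre, differed by -0.25 (SE 0.11). Mrpl45, which lies where the ribosome faces the inner membrane, differed by -0.24 (SE 0.10), Mrpl2, a homologue of a core protein of the bacterial large subunit, by -0.15 (SE 0.08), and Mrpl44, which carries a fold of RNase III, by -0.14 (SE 0.09). Mrpl41 was measured by a pair of probe sets, with -0.18 for the brighter one and -0.65 for the dimmer one (SE 0.20, limma adjusted p = 0.116), where ILPD array 3 was lowest at 6.45. Which of the pair lies at the gene itself was not checked, so the value used may not be the better one.

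Among small subunit genes, Mrps16, a homologue of a bacterial protein of that subunit, had the largest negative difference. It had 9.82, 9.60, 9.27, 9.38 and 9.57 in ILPD and 9.96, 9.57 and 9.88 in placebo, a difference of -0.28 (SE 0.13, limma adjusted p = 0.293). The groups overlapped, since ILPD arrays 1 and 2 lay above placebo array 2. Mrps18b, a mitochondria-specific relative of bacterial S18 proteins, had 10.67, 10.85, 10.73, 10.67 and 10.89 in ILPD and 11.15, 10.85 and 11.10 in placebo (difference -0.27, SE 0.08, limma adjusted p = 0.125). Mrps12, homologous to a bacterial protein of the decoding centre, differed by -0.17 (SE 0.07), Mrps22 by -0.16 (SE 0.09) and Mrps27, a protein with pentatricopeptide repeats, by -0.16 (SE 0.10). Mrps30, another protein with a small subunit symbol that structures place in the large subunit, differed by -0.11 (SE 0.09). Differences nearer 0 were those of Mrps21 (-0.07, SE 0.05), Mrps28 (-0.05, SE 0.09) and Mrps5 (-0.04, SE 0.06). Mrps21 was at 0.08 and Mrps30 at 0.01 after cyclic loess normalization, so that their sign depended on the scaling.

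A few members ran the other way. Mrpl50, a mitochondria-specific large subunit protein, had 8.36, 8.26, 8.21, 8.28 and 8.16 in ILPD and 7.96, 8.16 and 8.11 in placebo. Its difference of 0.18 (SE 0.07, limma adjusted p = 0.201) had the only unadjusted p under 0.05 among positive differences, and ILPD array 5 equalled placebo array 2 at this precision. Mrps2, a homologue of a bacterial small subunit protein, had 10.15, 9.86, 10.07 and 10.20 on ILPD arrays 1, 3, 4 and 5 and 9.75 and 9.88 on placebo arrays 2 and 3. ILPD array 2 and placebo array 1 lay level with each other between these, and the difference was 0.18 (SE 0.09, limma adjusted p = 0.305). Both kept a positive difference in all 15 alternatives, from 0.12 to 0.22 for Mrpl50 and from 0.12 to 0.25 for Mrps2. Mrps34 (0.03), Mrps11 (0.02) and Mrpl32 (0.02), the other positive differences, were smaller than their SE of 0.09, 0.05 and 0.09. Mrps34 was at -0.02 after quantile normalization.

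Promoters were available in RefSeq (build GRCr8) for 54 of the 68 genes, as 250 bases before and 50 bases after the start. Shown are 3 genes without overlap between groups (Mrpl37, Mrpl4, Mrpl17), a pair of related genes that hold all 3 motifs, as Mrpl36 also does (Mrps18a, Mrps18b), and Mrpl50, whose difference was positive. Capitals mark TGCGCA, the core of the NRF1 site, CCGGAAG, a site of ETS factors such as GABP, and AAGATGGC, a site of YY1, each on either strand; all of these factors are known for driving nuclear genes of mitochondria.
Mrpl37: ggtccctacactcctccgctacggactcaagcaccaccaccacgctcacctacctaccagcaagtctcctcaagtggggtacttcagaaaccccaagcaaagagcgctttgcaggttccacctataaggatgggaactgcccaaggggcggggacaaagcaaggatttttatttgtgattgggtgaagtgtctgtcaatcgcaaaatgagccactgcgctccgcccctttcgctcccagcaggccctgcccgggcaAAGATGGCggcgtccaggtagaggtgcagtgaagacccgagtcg
Mrpl4: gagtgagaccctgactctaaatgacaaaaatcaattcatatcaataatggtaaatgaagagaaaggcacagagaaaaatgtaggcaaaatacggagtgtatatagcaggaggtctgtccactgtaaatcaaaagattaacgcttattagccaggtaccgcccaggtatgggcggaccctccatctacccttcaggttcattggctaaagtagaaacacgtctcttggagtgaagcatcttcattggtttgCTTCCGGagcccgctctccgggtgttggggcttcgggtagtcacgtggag
Mrpl17: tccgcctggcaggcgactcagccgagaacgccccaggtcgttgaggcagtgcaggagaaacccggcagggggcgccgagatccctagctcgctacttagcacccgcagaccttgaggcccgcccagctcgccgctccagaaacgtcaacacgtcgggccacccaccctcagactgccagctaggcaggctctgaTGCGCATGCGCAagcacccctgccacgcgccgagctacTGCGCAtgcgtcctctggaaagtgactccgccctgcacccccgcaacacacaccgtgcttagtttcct
Mrps18a: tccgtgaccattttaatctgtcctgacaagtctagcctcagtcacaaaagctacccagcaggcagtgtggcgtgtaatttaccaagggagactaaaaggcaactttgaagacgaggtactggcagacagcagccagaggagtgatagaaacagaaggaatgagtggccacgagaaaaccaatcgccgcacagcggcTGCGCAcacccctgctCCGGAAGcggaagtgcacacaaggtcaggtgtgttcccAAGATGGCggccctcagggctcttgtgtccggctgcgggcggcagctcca
Mrps18b: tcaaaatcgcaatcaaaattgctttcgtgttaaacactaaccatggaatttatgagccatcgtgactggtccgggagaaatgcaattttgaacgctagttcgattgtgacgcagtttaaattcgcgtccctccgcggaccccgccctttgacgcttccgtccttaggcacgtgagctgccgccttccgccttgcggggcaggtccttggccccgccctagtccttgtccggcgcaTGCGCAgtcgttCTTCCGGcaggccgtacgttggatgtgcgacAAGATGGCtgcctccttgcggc
Mrpl50: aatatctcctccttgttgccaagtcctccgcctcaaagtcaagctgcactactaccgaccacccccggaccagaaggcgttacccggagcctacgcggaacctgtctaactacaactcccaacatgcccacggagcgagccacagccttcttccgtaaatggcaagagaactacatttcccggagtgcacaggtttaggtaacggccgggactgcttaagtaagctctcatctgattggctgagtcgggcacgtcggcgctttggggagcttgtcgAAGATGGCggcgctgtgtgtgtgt
In GRCr8 these lie at chr5:127074918-127075217 (minus strand), chr8:27815521-27815820 (plus), chr1:169575650-169575949 (minus), chr9:22367331-22367630 (minus), chr20:2842756-2843055 (plus) and chr5:68668038-68668337 (minus), each written 5′ to 3′ in the direction of its gene.

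These motifs were common in the members' promoters. CCGGAAG was found in 18 of 54 (33.3%), against 9.2% of all 27457 promoters of the same length, TGCGCA in 15 (27.8%, against 7.7%) and AAGATGGC in 14 (25.9%, against 3.4%). At least 1 of the 3 was present in 35 members (64.8%), against 18.1% of all promoters. AAGATGGC lay within the 50 bases after the start in 11 of the 14 members that hold it, as in Mrpl37, Mrps18a, Mrps18b and Mrpl50 above. Of all promoters that hold it, 44.3% had it there. GGGCGG, the Sp1 site, was found in 53.7% of members and 34.9% of all promoters, CCAAT, bound by NF-Y, in 42.6% and 37.7%, and TATAAA in 13.0% and 14.3%. The median GC content was 56.2% in members and 52.3% over all promoters. The median difference was -0.14 with and -0.14 without CCGGAAG, -0.14 and -0.13 for TGCGCA, and -0.10 and -0.14 for AAGATGGC. CCGGAAG was in 10 of 33 large and 8 of 21 small subunit promoters, and AAGATGGC in 8 of 33 and 6 of 21.

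The members varied together from array to array, within as well as between groups. Averaged over the 68 genes, the level was 9.95, 9.86, 9.70, 9.70 and 9.83 on the 5 ILPD arrays and 10.02, 9.84 and 9.97 on the 3 placebo arrays. ILPD array 1 lay above placebo array 2 and close to placebo array 3, so the groups overlapped. Group means were 9.81 ± 0.11 (SD, n = 5) in ILPD and 9.94 ± 0.09 (SD, n = 3) in placebo. Of the 68 genes, 28 had their lowest value on ILPD array 4 and 26 on ILPD array 3, whereas 31 had their highest on placebo array 1, 15 on placebo array 3 and 14 on ILPD array 1. Placebo array 2 was above a gene's own mean over 8 arrays in 24 genes, placebo array 3 in 60 and placebo array 1 in 64. The same count was 55 for ILPD array 1, 33 for ILPD array 2, 27 for ILPD array 5, 7 for ILPD array 3 and 5 for ILPD array 4. The mean over all named genes hardly moved, lying between 8.03 and 8.09 on ILPD arrays and between 8.02 and 8.07 on placebo arrays. Those genes are dimmer on average than the members, so their mean is no baseline of equal brightness.

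**Figure D2:**
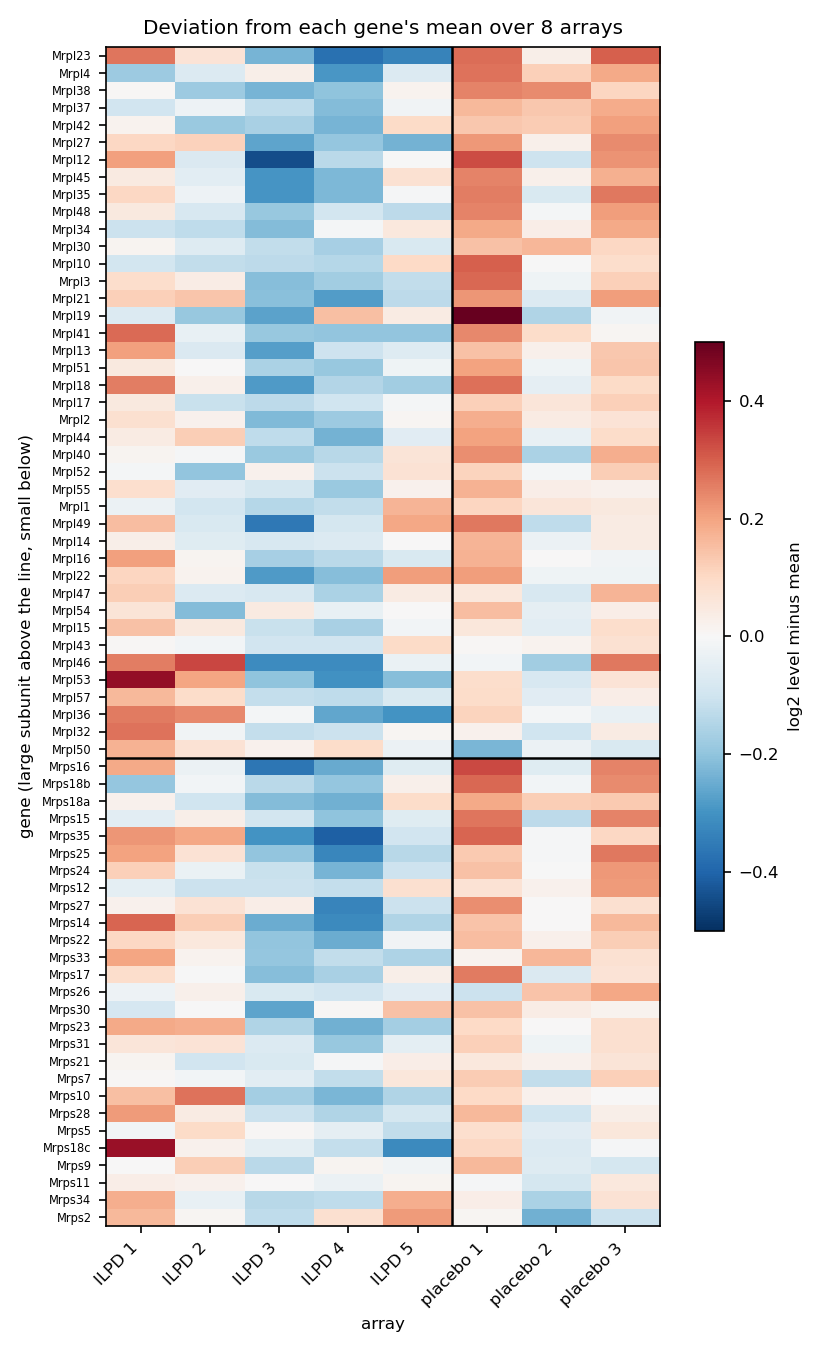
Level of each gene (rows, most negative difference first within each subunit) on each array (columns) minus the gene's mean over 8 arrays, in log2. Placebo arrays 1 and 3 and ILPD array 1 are mostly red (above the mean), ILPD arrays 3 and 4 mostly blue, and ILPD array 2 and placebo array 2 are mixed.

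Levels of other groups on the same arrays are given for comparison, and their part in the movement was not tested. Cytosolic ribosomal protein genes averaged 11.77, 11.52, 11.36, 11.39 and 11.35 on the ILPD arrays and 11.63, 11.51 and 11.68 on the placebo arrays, with ILPD array 1 highest of all. Ventricular cardiomyocyte markers ran differently, with ILPD array 1 at 13.29 near the low end of its group. Neutrophil markers (6 of 6 measured, 0 called) averaged 9.04, 8.89, 8.08, 8.69 and 8.18 on ILPD arrays and 8.15, 7.50 and 7.62 on placebo arrays. Their summed linear signal ran from 2.07 to 4.65 in ILPD and from 1.34 to 2.35 in placebo, again in units of 1000. For the 6 monocyte and macrophage markers it was 3.55 to 5.32 in ILPD and 2.63 to 3.57 in placebo, for 5 of 6 endothelial markers 6.43 to 7.73 in ILPD and 6.12 to 6.97 in placebo, and for the 6 fibroblast markers 14.3 to 16.3 in ILPD and 15.7 to 16.2 in placebo. The sums were 13.3 to 15.2 in ILPD and 12.9 to 14.1 in placebo for the 5 smooth muscle and pericyte markers, and 1.47 to 1.80 in ILPD and 1.45 to 1.58 in placebo for 5 of 6 lymphocyte markers. In limma's test 1 marker rose in each of 3 of these lists: Cx3cr1 among the monocyte and macrophage markers (0.76, SE 0.15, adjusted p = 0.0311), Egfl7 among the endothelial (0.60, SE 0.12, adjusted p = 0.0282) and Klrd1 among the lymphocyte markers (0.52, SE 0.10, adjusted p = 0.0304). Each of these calls was lost without any 1 of the placebo arrays and after quantile normalization; those of Cx3cr1 and Egfl7 were also lost without ILPD array 2, that of Egfl7 without ILPD array 3, that of Cx3cr1 with the replicate block and that of Klrd1 after cyclic loess. The medians were 0.19 for the monocyte and macrophage, 0.10 for the endothelial and 0.08 for the lymphocyte markers. Adgre1 (-0.17) in the first and Cdh5 (-0.16) in the second ran the other way. The fibroblast and the smooth muscle and pericyte markers held 0 calls (1 lower and 3 higher at an unadjusted p of 0.05). At that threshold 4 neutrophil, 3 monocyte and macrophage, 2 endothelial and 1 lymphocyte marker were higher. It was passed as higher by 11.5% and as lower by 9.39% of named genes. No marker was at 0 on these arrays.

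Within groups the members varied to unequal degrees. The SD within groups had a median of 0.13 over the 68 members and of 0.10 over all named genes. It was lowest for Mrps11, at 0.05, and highest for Mrpl46, at 0.28. Mrps11, a homologue of a bacterial small subunit protein, had 10.26, 10.25, 10.23, 10.20 and 10.24 in ILPD and 10.22, 10.14 and 10.28 in placebo. Mrpl46, a mitochondria-specific large subunit protein, had 9.75, 9.83, 9.18, 9.18 and 9.46 in ILPD and 9.48, 9.32 and 9.76 in placebo. In GRCr8 both genes lie head to head, on opposite strands with start sites under 1 kb apart. A dimmer probe set of Mrps11 varied more (8.70 to 9.12 in ILPD, 8.85 to 9.22 in placebo) and differed by -0.07, against 0.02 for the one used. The low spread of Mrps11 thus held only for the probe set used. Where each of these probe sets lies in the genome was not checked.

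Large and small subunit genes differed little from each other. The median difference was -0.16 over 41 large subunit genes (39 negative) and -0.13 over 27 small subunit genes (24 negative), or -10.5% and -8.3%. At an unadjusted p of 0.05, 12 large and 4 small subunit genes were lower, and the groups did not overlap for 6 large and 1 small subunit gene. Of named genes inside the members' range of brightness, 17.3% were lower at that p and 10.4% lay below placebo on every ILPD array. Whether these counts differ between the subunits was not tested. With Mrps30 and Mrps18a placed in the large subunit, as in structures, the medians stayed at -0.16 and -0.13, and the counts without overlap became 7 of 43 and 0 of 25. The mean large subunit level minus the mean small subunit level was 0.102, 0.047, 0.065, 0.105 and 0.109 on ILPD arrays and 0.139, 0.117 and 0.108 on placebo arrays. ILPD array 5 reached placebo array 3, the means were 0.09 ± 0.03 (SD, n = 5) and 0.12 ± 0.02 (SD, n = 3), and their difference was -0.04. The difference of the medians, -0.03, was -0.01 without ILPD array 2 and -0.06 without placebo array 2.

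**Figure D3:**
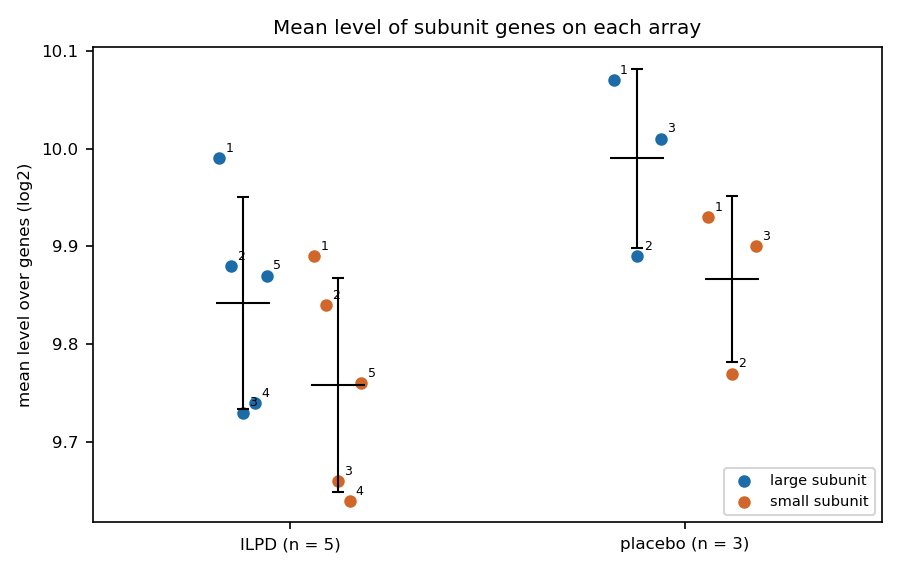
Mean log2 level (y axis) of the 41 large and 27 small subunit genes on each array, with the replicate number beside each point and bars for the mean and SD of 5 ILPD and 3 placebo arrays. In both subunits placebo array 1 is highest, ILPD arrays 3 and 4 are lowest, and ILPD array 1 lies above placebo array 2.

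By origin, the raw medians lay farther apart in the small subunit than in the large, but not relative to genes of equal brightness. Large subunit genes with a bacterial homologue had a median difference of -0.17 (24 genes) and those specific to mitochondria -0.14 (17 genes). For the small subunit these were -0.07 (15 genes) and -0.15 (12 genes). Relative to genes of equal brightness, the medians were -0.13 with a homologue and -0.06 without in the large subunit. In the small subunit they were -0.05 and -0.09. Over both subunits the medians were -0.15 for 39 genes with a homologue and -0.14 for 29 without, and none of these differences was tested.

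The differences were set against genes of equal brightness, because brighter probe sets in general were lower in ILPD. Other named genes had a median difference of 0.06 at mean levels from 7 to 8, 0.02 from 8 to 9, -0.06 from 9 to 10, -0.10 from 10 to 11, -0.14 from 11 to 12 and -0.15 above 12. The members in the same ranges had medians of -0.15 (2 genes), -0.10 (17), -0.16 (18), -0.20 (20), -0.12 (7) and -0.16 (4). They thus lay below the other genes up to a level of 11 and near them above it. For each member, the median over named genes within 0.25 log2 of its own mean level was taken as its expected difference. The median of these over the members was -0.08. Relative to them, 51 of 68 members were lower and 17 higher, with a median of -0.08. That median was -0.10 for the large and -0.06 for the small subunit, -0.05 without placebo array 1 and -0.12 without placebo array 2. Among genes of equal brightness 65.1% had a negative difference on average, against 92.6% of the members.

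**Figure D4:**
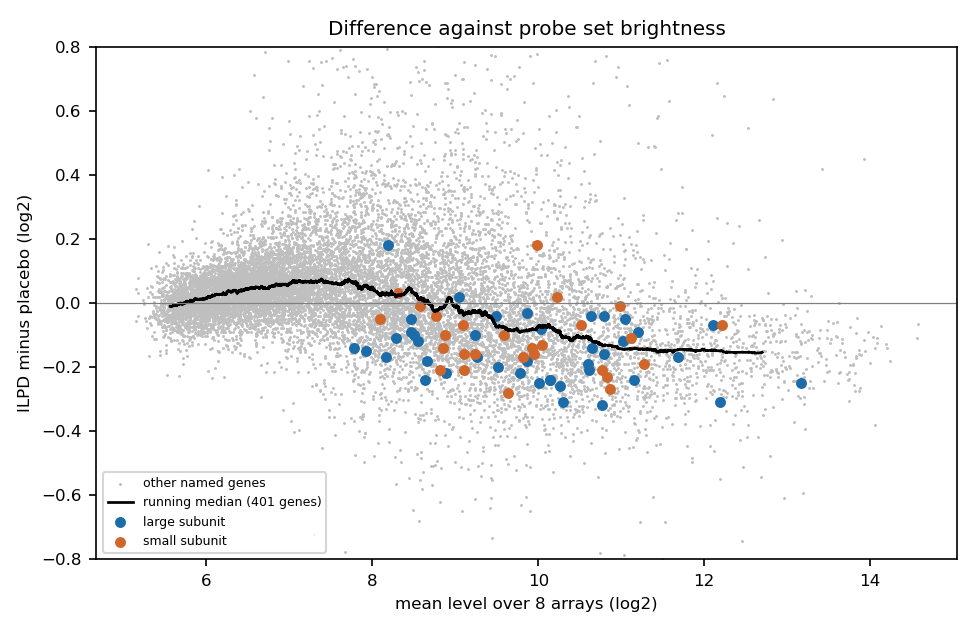
Difference (ILPD minus placebo, log2) against mean level over 8 arrays (log2) for named genes in grey, with their running median as a line, and for large and small subunit genes in colour; 81 other genes lie beyond 0.8 in either direction. The running median falls below 0 above a level of about 9, and most coloured points lie under it.

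Single members differed in how far they stood from genes of their brightness. Mrps2 lay farthest above, by 0.26, and Mrpl50 by 0.14. Mrpl48, a mitochondria-specific protein with a difference of -0.24, lay farthest below, also by 0.24, followed by Mrpl38 at -0.22. Mrpl37, Mrpl4 and Mrpl30 stood at -0.16, -0.17 and -0.20. Mrpl42, one of the genes without overlap, was at -0.08, and Mrpl17 at -0.03, so their differences were close to those of other genes equally bright. The bright Mrps21, Mrpl54 and Mrpl15 lay above their expected value by 0.08, 0.07 and 0.09 although their own differences were negative. Those 3 differences were positive after cyclic loess and after quantile normalization, from 0.05 to 0.08.

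Mitoribosomal proteins that carry other names had small differences as well. Dap3, a small subunit protein that binds GTP, had 9.30, 9.39, 9.12, 9.10 and 9.20 in ILPD and 9.45, 9.03 and 9.25 in placebo, a difference of -0.02 that was 0.01 after cyclic loess normalization. Aurkaip1, of the small subunit, differed by -0.19 (SE 0.12), and Gadd45gip1, of the large subunit, by -0.18 (SE 0.08). All 5 measured genes of this kind had a negative difference, with a median of -0.12, and 0 were called in limma (0 at an unadjusted p of 0.05). Relative to genes of equal brightness their median was 0.00, with 2 below and 3 above, against -0.08 for the 68 members.

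Factors that work with the mitoribosome showed differences of like size, and 0 of them were called. Of 14 measured translation factors, 13 had a negative difference with a median of -0.19, and 7 were lower at an unadjusted p of 0.05. Taco1, an activator of the translation of cytochrome oxidase subunit 1 in human cells, was lowest with -0.35 (SE 0.10, limma adjusted p = 0.108). Its levels were 8.62, 8.71, 8.29, 8.34 and 8.61 in ILPD and 8.94, 8.76 and 8.87 in placebo, without overlap. Tufm, the elongation factor that delivers transfer RNAs, differed by -0.28 and Lrpprc, which stabilises mitochondrial messenger RNAs, by -0.24. Rmnd1 had the only positive difference, 0.05 (SE 0.09). Among genes as bright as the 14 translation factors, 61.8% had a negative difference on average. Of named genes inside the members' range of brightness, 17.3% were lower at an unadjusted p of 0.05. Of 11 mitochondrial aminoacyl-tRNA synthetases, which charge the transfer RNAs, 9 had a negative difference with a median of -0.14, from -0.26 for Fars2 to 0.17 for Pars2. Among genes as bright as these 11, 43.7% had a negative difference on average.

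Assembly factors, DNA and RNA machinery and regulators lay nearer 0. Of 22 measured assembly factors, 14 were negative and 8 positive, with a median of -0.01 and 0 calls. The RNA helicase Ddx28 had 8.03, 7.98, 8.09, 7.76 and 7.89 in ILPD and 7.81, 7.45 and 7.40 in placebo, a difference of 0.39 (SE 0.10, limma adjusted p = 0.0776, or 0.0344 without placebo array 1), and Rbfa, which assists the small subunit, differed by -0.27 (SE 0.09). The 19 genes of mitochondrial DNA and RNA machinery had a median of -0.04, with 0.11 for Ssbp1 as the highest. Fastk, founder of a family of mitochondrial RNA-binding proteins, was the 1 member of that list that fell: it had 10.57, 10.60, 10.61, 10.54 and 10.66 in ILPD and 10.85, 10.89 and 10.83 in placebo. The difference was -0.26 (SE 0.05, limma adjusted p = 0.0281), and the call was lost in 10 of 15 alternatives, with an adjusted p of up to 0.164. These were the fits without any placebo array or without ILPD array 2, 3 or 4, cyclic loess and quantile normalization, the replicate block, and the intensity trend with a robust prior. Of 9 regulators of these genes, Esrrg fell by 0.37 (limma adjusted p = 0.0291), a call lost in 7 of 15 alternatives (without any placebo array, without ILPD array 2, 3 or 4, and with the replicate block), and Myc differed by 0.29 (SE 0.16). Of factors whose sites were marked above, Nrf1 differed by 0.03 (SE 0.06) and Gabpa by 0.05 (SE 0.08). Yy1 differed by -0.20 (SE 0.07, limma adjusted p = 0.180), with every ILPD array below placebo. Their part in the members' differences was not tested.

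**Figure D5:**
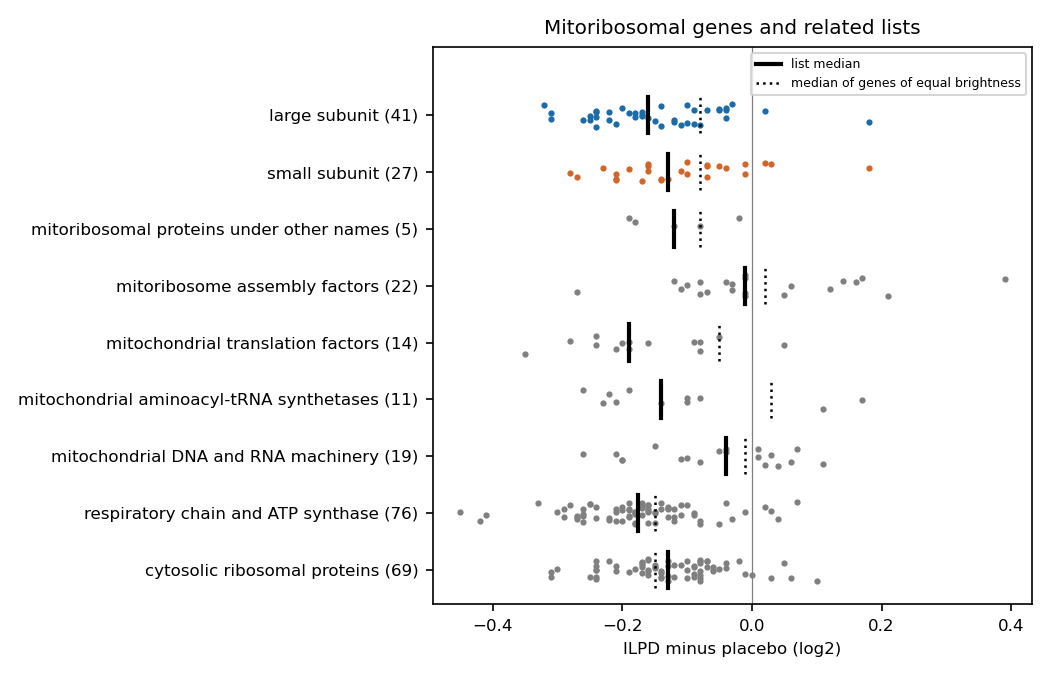
Difference of each gene (ILPD minus placebo, log2, x axis) in the 2 subunits and in related lists (number of genes in brackets), with the list's median as a solid line and the median of genes of equal brightness as a dotted one. Both subunits and the translation factors have medians between -0.19 and -0.13, while assembly factors centre on -0.01.

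The respiratory chain, whose mitochondrially encoded subunits this ribosome makes, and the cytosolic ribosome gave similar medians. Of 76 nuclear genes of the respiratory chain and ATP synthase, 72 were negative with a median of -0.17, 2 fell in limma's test and 43 were lower at an unadjusted p of 0.05. In 21 of them every ILPD array lay below every placebo array. Among genes of equal brightness 87.0% had a negative difference on average. Inside the members' range of brightness, 17.3% of named genes were lower at that p and 10.4% lay below placebo on every array. These 76 genes were brighter on average than the members. The 2 that fell are among the genes for the membrane ring of the ATP synthase: Atp5mc2 had 12.47, 12.35, 12.27, 12.20 and 12.52 in ILPD and 12.75, 12.79 and 12.80 in placebo (-0.42, SE 0.08, limma adjusted p = 0.0246), and Atp5mc1 fell by 0.27 (adjusted p = 0.0441). Atp5mc3, a further gene of that ring, differed by -0.22 and was not called. The call of Atp5mc2 was lost in 7 of 15 alternatives (adjusted p up to 0.0926): after cyclic loess or quantile normalization, with the replicate block, and without ILPD array 2 or any placebo array. That of Atp5mc1 was lost in 11 (up to 0.565), which were these, the intensity trend with a robust prior, and the fits without ILPD array 1, 3 or 4, and its difference was -0.08 after cyclic loess. In Ndufb7 the groups overlapped (-0.45, SE 0.18), and Cox4i2 differed by 0.07 (SE 0.12). Of 69 cytosolic ribosomal protein genes, 64 were negative with a median of -0.13 and 0 were called, 6 being lower at an unadjusted p of 0.05. Rpl28, a protein of the large cytosolic subunit, was lowest there with -0.31 (SE 0.08, limma adjusted p = 0.0895), every ILPD array lying below placebo, and it passed without ILPD array 1 (0.0413). Rps4y2 was highest with 0.10 (SE 0.11). Among genes as bright as these 69, 81.5% had a negative difference on average. Relative to genes of equal brightness the medians were -0.03 for the respiratory chain and 0.00 for the cytosolic ribosome, against -0.08 for the mitochondrial ribosomal proteins. A shift of that size was not particular to them. The same median was -0.10 for the 14 translation factors (13 below) and -0.15 for the 11 aminoacyl-tRNA synthetases (9 below). It was -0.04 for assembly factors and -0.03 for DNA and RNA machinery. Whether these sets differ from each other was not tested.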

How the data were processed

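Biotin-labelled RNA from left ventricle was hybridised to Affymetrix arrays, per the labels. The authors deposited log2 values for 28826 probe sets on 8 arrays; that the scale is log2 was settled from their range. How they normalized them is not given in the sources read, and the submitters' processing notes name R 2.14.2. Groups came from the treatment label.

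Symbols came from the platform annotation: 15209 probe sets had 1 symbol, 306 several and 13311 none here. A probe set shared by Mrpl20 and another gene was left out. All 68 members matched a RefSeq table (GRCr8) by gene ID. ILPD was compared with placebo in limma 3.58.1 under R 4.3.3 (lmFit and eBayes, no covariates or filter), two-sided, adjusted by Benjamini-Hochberg over all probe sets at a threshold of 0.05, and the fit was tested on simulated data. Detection signals were not used here, and precision is limited by how many arrays there are. Promoter and summary counts used Python 3.11.15, figures matplotlib 3.10.9.

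The members and lists were chosen with earlier results of these data known. Genes named are any member past the threshold, the 8 largest differences each way, the 3 brightest and 3 dimmest, those with probe sets of opposite sign, and a short fixed set; in related lists, called genes and, outside the marker lists, extremes. Mrpl48, Mrpl54, Mrpl15, Mrpl30, Mrpl17, Mrpl41, Mrpl46, Mrpl18, Mrps18c, the neighbouring genes, Mrpl36, Tufm, Lrpprc, Gadd45gip1, Nrf1, Gabpa, Yy1 and Atp5mc3 were named after their values were seen. The alternatives tried were quantile and cyclic loess normalization, a robust prior with an intensity trend, a filter on dim probe sets, weights for arrays, a block for the replicate number, averaging the probe sets of each gene, other thresholds and windows, and leaving out each array.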

Additional observations from a re-analysis of the deposited data

How the results depend on the processing

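The median differences of all members, of both subunits and relative to genes of equal brightness kept their sign in every alternative run, between -0.19 and -0.09 for all members. The number of members called, 0 as deposited, was 2 with array weights, 3 without the dimmest 40% of probe sets, 4 at an adjusted p of 0.10, and from 0 to 2 over the fits that leave out 1 array. Over all probe sets 811 were called; this was 484 after quantile normalization, 459 with the replicate number as a block and 1756 at the looser threshold, and from 172 (without placebo array 2) to 975 (without ILPD array 5), with 382, 500 and 459 without ILPD arrays 2, 3 and 4 and 385 and 241 without placebo arrays 1 and 3. The large minus small median difference was -0.07 with the replicate block and from -0.06 to -0.01 without single arrays. Of 35 members named, 25 of them by the rule, 24 kept their sign throughout. After cyclic loess, Mrpl15 was at 0.07, Mrpl36 at 0.03, Mrpl46 at 0.01, Mrpl54 at 0.08, Mrps18c at 0.10, Mrps21 at 0.08, Mrps30 at 0.01 and Dap3 at 0.01; after quantile normalization, Mrpl15 was at 0.05, Mrpl36 at 0.02, Mrpl54 at 0.05, Mrps18c at 0.09, Mrps21 at 0.06 and Mrps34 at -0.02; with the replicate block, Mrpl36 was at 0.14, Mrpl46 at 0.07, Mrps18c at 0.13, Mrps28 at 0.01, Cox4i2 at -0.05 and Dap3 at 0.02; with the mean of its probe sets, Mrps11 was at -0.02. Without single arrays the ranges were -0.05 to 0.05 for Mrpl32, -0.10 to 0.04 for Mrpl36, -0.14 to 0.08 for Mrpl46, -0.12 to 0.07 for Mrps18c, -0.02 to 0.06 for Mrps11, -0.12 to 0.01 for Mrps28, -0.04 to 0.07 for Mrps34, -0.13 to 0.08 for Dap3, -0.02 to 0.15 for Cox4i2 and -0.06 to 0.14 for Rmnd1; the cause was not tested. Same-numbered arrays of the groups deviated from their group means with correlations of 0.22, -0.06 and -0.10, so the numbers were not taken as pairs. Small differences, 3 placebo arrays and unknown detection limits bound what these values can show.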

Other observations

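Of the 54 members with a promoter in the RefSeq table, 19 have a gene on the opposite strand whose start lies within 1 kb, and 15 of these neighbours were measured. Of these, 2 (Mrpl46 and Mrps11, each the other's neighbour) are themselves members. The 13 that are not had a median difference of 0.03, and 6 of them were negative, while the members beside them had a median of -0.14. These neighbours were not set against genes of equal brightness, and differences on these arrays depended on brightness. Mitd1, a protein of cell division that shares its start region with Mrpl30, differed by 0.37 (SE 0.09, limma adjusted p = 0.0533), with every ILPD array above every placebo array, and passed without ILPD array 3 (0.0230) and without the dimmest 40% of probe sets (0.0436), while Mrpl30 differed by -0.22 with every ILPD array below. Helq, a DNA helicase beside Mrps18c, differed by 0.19 (SE 0.05, adjusted p = 0.103), and Mrps18c by -0.01, with a positive sign under 6 of 15 alternatives. Tcp1, a subunit of the cytosolic chaperonin beside Mrpl18, ran with its neighbour, at -0.26 and -0.17. Mitd1 had the lowest adjusted p of the neighbours, and the difference between neighbours and members was not tested.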
